A study of Homo sapiens with 26 samples.

Results

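The 38 genes described here each hold at least 1 intron that the authors listed as retained in U87MG cells beside an exon called in EZH2-associated small RNA. They were taken as every gene of that list, which has 43 rows and 42 distinct introns, and they make up 38 of the 596 genes with a called U87MG exon and 38 of the 4083 gene symbols named across the 6 deposited lists. The introns were thus selected on measured values, a number per intron given by the authors and contact with a called exon, so both are given below as a description without a test.

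The study looked for RNAs bound by EZH2, and its title names mispriming as a source of artifacts. Small RNA was sequenced from EZH2 immunoprecipitates, IgG immunoprecipitates and input without antibody, with no treatment, in U87MG and T98G (both glioblastoma lines, 2 libraries of each kind) and in K562 (a chronic myeloid leukaemia line, 1 library of each kind). T98G also gave 6 libraries of fragmented long RNA of the same 3 kinds and 1 EZH2 iCLIP library, a library of RNA crosslinked to the protein, under which the list of full-length targets is named. Polyadenylated RNA of U87MG cells came from 2 libraries with siRNA against EZH2 and 2 with siRNA against GFP, and the retained intron list is named under replicate 2 of the former, whose treatment label reads EZH3 where its title reads EZH2. Whether retention was called in the siEZH2 libraries, in the siGFP libraries or between them is not stated in the sources used here. Each line is a single established cell line, and nothing in the labels says that replicates came from separate cultures.

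EZH2 is the catalytic subunit of PRC2, the complex that methylates lysine 27 of histone H3 and is associated with gene silencing. An intron is normally cut from the RNA between a 5′ splice site that begins with GT and a 3′ splice site that ends with AG, and an intron left in the RNA is called retained. A retained intron within the coding sequence is read by the ribosome in frame until a stop codon is met, and such RNAs are often held in the nucleus or broken down by nonsense-mediated decay. In small RNA libraries an adapter is joined to the 3′ end of the RNA and the primer for reverse transcription pairs with that adapter. RNA that resembles the adapter can be primed by mistake, and the bases AGATCG are the start of that 3′ adapter.

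The sequences at the intron ends are shown first because they bear on what the list calls an intron. Listed coordinates ran 2 bases into the exon at each end, and those 2 bases were trimmed here. Each line below gives 30 bases of the GRCh37 (hg19) reference on the RNA strand, for the 6 introns with a deposited value over 2. At a 5′ end they are 10 bases before the intron and 20 within it, at a 3′ end 20 within it and 10 after it. Capitals mark the outermost 2 bases of the trimmed intron.

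MICAL3 5′ end, chr22:18368624-18368653, minus strand: acggagacagGTaaacccaacccgtgccct
MICAL3 3′ end, chr22:18367115-18367144, minus strand: acttggcctgtgtgtcccAGctgacacaag
DOCK1 narrow intron 5′ end, chr10:128769040-128769069, plus strand: acatatgaagGTgcgtatgcatcttggtat
DOCK1 narrow intron 3′ end, chr10:128776192-128776221, plus strand: tcaactttgtgtttgtttAGggtggtaccg
LRIG2 5′ end, chr1:113616258-113616287, plus strand: ccgctatcctGTgagtagagcggccaggca
LRIG2 3′ end, chr1:113633920-113633949, plus strand: gatattttgtcctctttcAGggatttcagt
THOC2 5′ end, chrX:122799473-122799502, minus strand: tatgaaggagGTaagtaagatttttcttac
THOC2 3′ end, chrX:122779217-122779246, minus strand: tttctttttttaaattgtAGtttcagtctg
FBXW7 5′ end, chr4:153332292-153332321, minus strand: ttgtcttacaGAaggtaatggaaagtatta
FBXW7 3′ end, chr4:153303658-153303687, minus strand: tagtttgcacttcaccaaGCctcagacagg
DOCK1 wide intron 5′ end, chr10:128609463-128609492, plus strand: cttgcctttaCAaaaagttcaggccgggca
DOCK1 wide intron 3′ end, chr10:128768946-128768975, plus strand: ttccccttttttcatcacAGctttttataa

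The first 4 introns of this set begin with GT and end with AG and equal an annotated intron of GENCODE release 44. FBXW7 has neither, and the wide DOCK1 intron has only the AG, at the end that touches the called exon. Over the whole list, 29 of 42 introns (69.0%, 95% Wilson interval 54.0 to 80.9) equalled an annotated intron exactly, and all 29 began with GT and ended with AG. The other 13 lie in DOCK1 (the wide intron), FAM178A, FBXW7, MACF1, PPP2R5A, RBMX, WDR34 (the narrow intron), ADAM28, AGAP1, IFT172, PIK3C3, SLC4A7 and STK3. Of these 13, only the PPP2R5A interval had GT and AG at its ends. The end touching the called exon was an annotated splice site in 8 of the 13 and the far end in 4. Of their 26 ends, 11 fell on the outer edge of an annotated transcript and 3 (in FBXW7, MACF1 and PIK3C3) on no annotated exon edge.

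The far ends of 2 of these intervals abut an RNA other than the host messenger RNA. The wide DOCK1 interval, chr10:128609471-128768967, starts at the edge of a Y_RNA copy, and the AGAP1 interval, chr2:236403492-236414396, ends where AGAP1-IT1, an RNA annotated within the AGAP1 intron, begins. The wide DOCK1 interval also holds an assembly gap of 150000 bases without sequence, which is 94.0% of its 159497 bp, so 9497 bp of it are known sequence. It was the widest of the list, and its width is not a measured intron length. Against GENCODE release 44, the label of the list as introns therefore held at both ends for 29 entries. The annotation release behind the authors' list is not stated, and whether the other 13 entries match another release was not tested. Retention itself could not be checked, because the lists hold no reads. They hold no expression levels either, so markers of the cell lines were not examined.

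The 29 annotated entries were mostly introns of coding sequence. Of them 25 lay between coding bases, those of KYNU and PPM1B in a 5′ UTR, and those of UPF1 and SPIRE1 in transcripts without annotated coding sequence. All 25 coding introns met a stop codon when read in frame from the exon before, and the stop ended between base 4 and base 252 of the intron, with a median of 51. In 14 of the 25 it came within 100 bases. The earliest stops, ending at base 4, were those of LRIG2, BIRC6, CDK12 and the wide TANC2 intron, where the frame places bases 2 to 4 of the intron in 1 codon. LRIG2 shows it in the sequence above, in which GTGAG holds the stop TGA. The latest were in SMG1 (base 252), KRT79 (208) and CSMD2 (203). Stops were as general among unlisted introns: 1182 of 1205 coding introns that adjoin a called U87MG exon and are not listed (98.1%) met one, at a median of 38 bases.

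The touching exons follow, because the labels' library kit and the study's title concern priming at the adapter. Shown are 2 whole exons that touch a listed intron and hold AGATCG on the RNA strand, with that motif in capitals, and the MICAL3 exon, which touches the intron of highest value and does not hold it.

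DOCK1 exon, chr10:128768966-128769049, plus strand: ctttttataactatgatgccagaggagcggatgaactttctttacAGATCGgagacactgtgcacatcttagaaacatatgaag
HEATR5B exon, chr2:37255824-37256063, minus strand: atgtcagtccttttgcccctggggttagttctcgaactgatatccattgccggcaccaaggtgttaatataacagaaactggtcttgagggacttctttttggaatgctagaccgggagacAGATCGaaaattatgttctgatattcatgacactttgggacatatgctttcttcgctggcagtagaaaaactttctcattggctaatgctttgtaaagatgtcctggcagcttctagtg
MICAL3 exon, chr22:18368644-18368817, minus strand: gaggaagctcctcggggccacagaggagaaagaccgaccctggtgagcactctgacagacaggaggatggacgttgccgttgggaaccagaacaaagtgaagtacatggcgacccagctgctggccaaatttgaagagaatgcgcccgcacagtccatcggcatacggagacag

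On the RNA strand AGATCG was present in 4 of the 40 touching exons (10%, 95% Wilson interval 3.96 to 23.1), among them those of DOCK1, HEATR5B and DOCK5. Among the other 629 called U87MG exons it was present in 68 (10.8%), so the share in the touching exons was near that of the rest. The shorter AGAT, which AGATCG contains, was in 80% of touching exons and in 80.3% of the others. On the opposite strand AGATCG was in 1 touching exon (2.5%) and in 6 of the other 629 (0.954%). Within the 42 listed introns, searched on the RNA strand only, AGATCG occurred in 16. In the 50 bases next to the touching exon it occurred in none, and 0 of 42 allows a share of up to 7.14%. Stretches that short would seldom hold a motif of this length, and unlisted introns were not searched. Whether the motif is rarer beside the exon was thus not tested.

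For exons called in T98G as well, the deposited signed distance locates a peak of small RNA reads inside the exon. No label gives the sign of that distance. It was settled from the place of AGAT relative to the peaks over all T98G exons, and the window used here was chosen after that place was seen, so the AGAT counts at peaks describe the exons and are not independent of either choice. The windows below show the 15 bases before the peak middle and the 25 after it, for touching exons in which AGAT (in capitals) starts at the 11th to 15th base after the peak middle. The last pair shows, for contrast, peaks without AGAT at that place.

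DOCK1 peak, chr10:128768986-128769025, plus strand: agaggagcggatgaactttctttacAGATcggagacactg
AGAP1 peak, chr2:236403439-236403478, plus strand: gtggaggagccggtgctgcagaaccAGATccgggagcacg
UPF1 peak, chr19:18956853-18956892, plus strand: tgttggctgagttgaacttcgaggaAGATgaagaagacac
SMG1 peak, chr16:18853548-18853587, minus strand: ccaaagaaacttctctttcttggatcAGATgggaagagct
PIK3C3 peak, chr18:39550370-39550409, plus strand: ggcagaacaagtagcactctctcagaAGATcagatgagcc
KYNU peak, chr2:143643008-143643047, plus strand: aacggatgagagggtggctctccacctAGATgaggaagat
ATL2 peak, chr2:38570492-38570531, minus strand: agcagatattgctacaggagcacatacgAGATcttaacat
LRIG2 peak, chr1:113633949-113633988, plus strand: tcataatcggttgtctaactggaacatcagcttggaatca
TANC2 peak, chr17:61457137-61457176, plus strand: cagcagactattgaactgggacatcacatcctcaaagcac

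AGAT started in that window in 9 of the 23 touching exons that have a T98G peak (39.1%, 95% Wilson interval 22.2 to 59.2): the 7 printed and those of DOCK5 and STK3. Over all 2463 T98G exons with such a peak the same window held AGAT in 635 (25.8%), which lies within the interval of the touching exons. A window 20 bases further on held it in 0 of 23, which allows a share of up to 13.0%, and in 84 of 2463 (3.41%). With the opposite sign of the distance, AGAT was in the first window in 0 of the 23. Sign and window were both chosen from AGAT at T98G peaks, so neither contrast is a test. AGATC was at the peak in 5 of 23 touching exons against 13.4% of all, and AGATCG in 2 of 23 against 4.59%. Those 2 were DOCK1 and DOCK5, whose touching exons are both 84 bp wide with the peak middle 35 bases in. In HEATR5B the peak middle was 103 bases in, and AGATCG started 19 bases after it, outside the window.

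**Figure D1:**
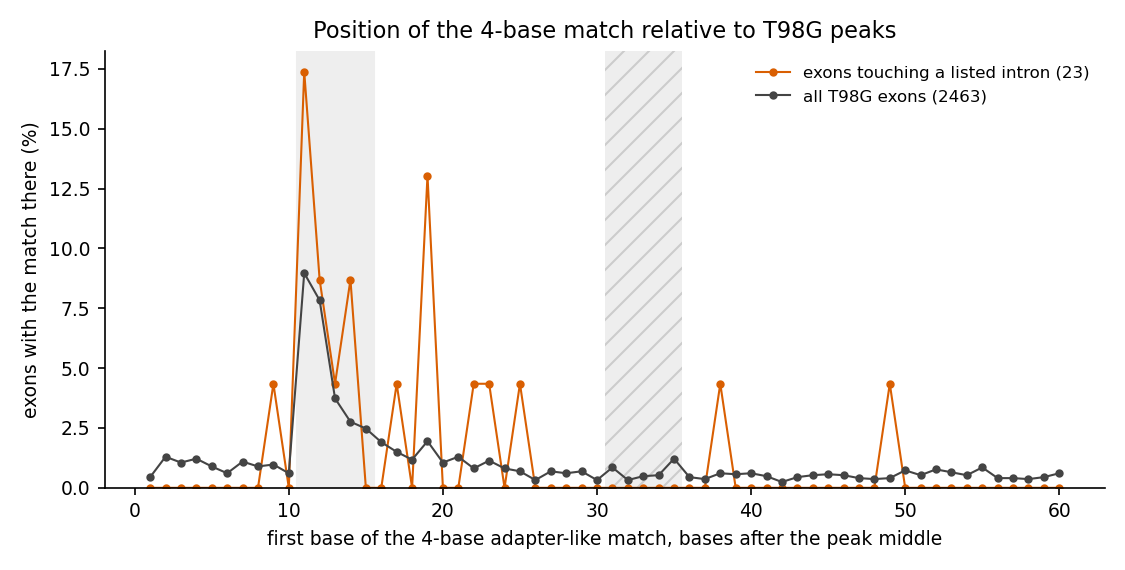
Share of T98G exons (y axis, percent) in which the 4-base adapter-like match starts at each base after the peak middle (x axis, bases), for the 23 exons touching a listed intron and for all 2463 exons. The plain grey band covers bases 11 to 15, where 9 of 23 touching exons and 635 of 2463 exons had a match. It was chosen after the place of the match was seen. The hatched band covers the window 20 bases on, where 0 of 23 and 84 of 2463 had a match.

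The distance of these peaks to the edge of the listed intron ranged from 24 bases in LRIG2 to 1351 in STK3, with a median of 79 (83 with the opposite sign), and it was within 100 bases in 14 of 25 contacts. As a share of the exon's width that distance ran from 5.26% to 91.5% with a median of 49.8%, and it was under 50% in 13 of the 25 contacts. Counted this way, the peaks lay about as often in the part of the exon nearer the intron as in the part farther from it. The DOCK1 and WDR34 exons count from either side, so each gives a contact under 50% and another over it by construction. The longest distances were in the wide exons of STK3, PIK3C3 (1018 bases) and FBXW7 (511 bases).

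**Figure D2:**
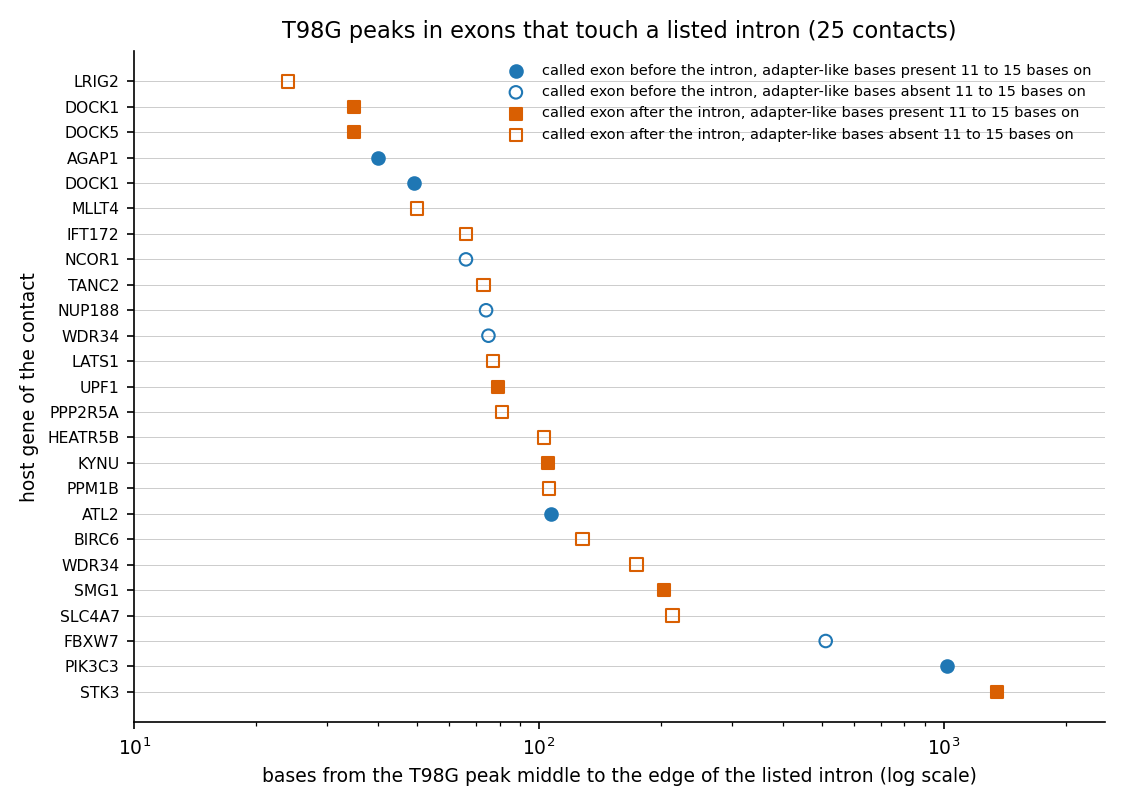
Distance in bases (x axis, log scale) from the T98G peak middle to the listed intron for 25 contacts, named by host gene and ordered by distance. Circles are exons before the intron and squares exons after it, filled where the adapter-like bases start 11 to 15 bases after the peak; LRIG2 is nearest at 24 bases and STK3 farthest at 1351.

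The listed introns were of widely differing size. Widths ran from 533 bp in CAMTA2, a calmodulin-binding transcription activator, to the 159497 bp of the wide DOCK1 interval, with a median of 5358.5 bp and quartiles of 2804 and 15065. Under 1000 bp were only CAMTA2, the KRT79 intron (a keratin gene, 640 bp) and the NCOR1 intron (a transcriptional corepressor, 887 bp). Over 20000 bp were 8 introns, and 5 of these equalled an annotated intron, the widest being that of DOCK5 at 58727 bp. GC content ran from 34.5% in STK3 to 55.2% in CAMTA2, with a median of 42.1%.

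The median listed intron was wider than the median of other introns in the same position. GENCODE has 1462 introns that adjoin a called U87MG exon exactly, of which the 29 matched entries are 1.98%. Their median width was 3918 bp, and that of the 1433 not listed was 1833 bp. None of the 29 was under 500 bp, which allows a share of up to 10.3%, whereas 266 of the unlisted introns (18.6%) were. At 20000 bp or more were 5 of 29 listed introns (17.2%) and 85 unlisted (5.93%). These are shares of annotated introns without replicates, and no test of the difference was made. How the authors' call depends on intron width is not stated.

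**Figure D3:**
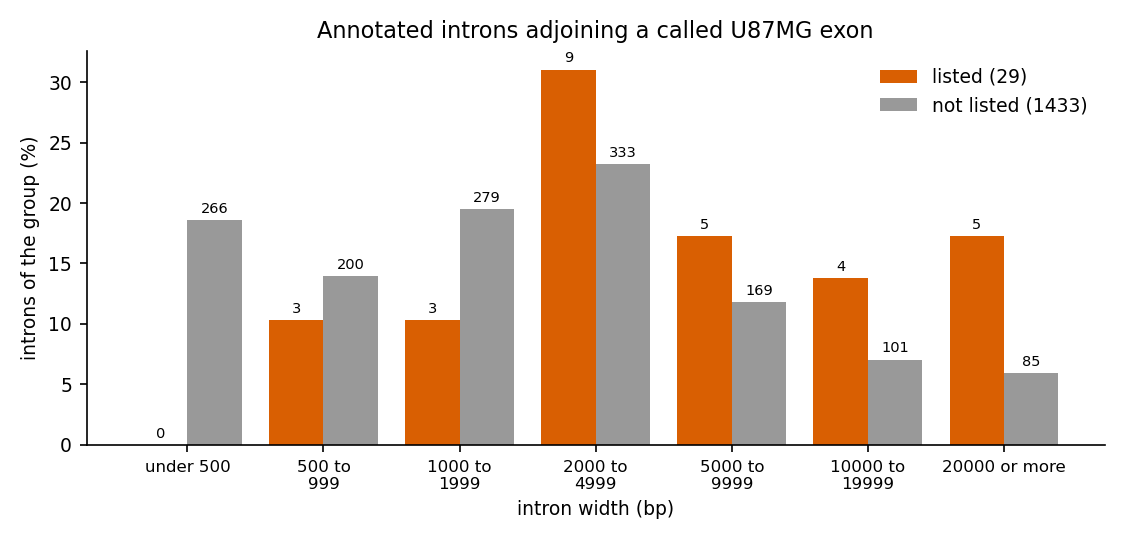
Share (y axis, percent) of annotated introns adjoining a called U87MG exon that fall in each width class (x axis, bp), for the 29 listed and the 1433 not listed, with the number of introns above each bar. No listed intron is below 500 bp, where 266 unlisted introns lie, and listed introns take a larger share than unlisted ones in every class from 2000 bp up.

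The listed intron was the first of its transcript in 6 of 29 (20.7%, 95% Wilson interval 9.85 to 38.4), in DOCK5, LRIG2, PPM1B, SPIRE1, UPF1 and WDR34 (the wide intron), against 131 of 1433 unlisted introns (9.14%, which is below that interval). In all 6 the called exon came after the intron, as it did in 99 of the 131 unlisted first introns (75.6%). GC content differed little, with medians of 42.2% and 40.6%. The SPIRE1 and UPF1 introns are first introns only of a transcript without annotated coding sequence. Over longest coding transcripts, first introns were 4 of 24 listed (16.7%) and 29 of 1050 unlisted (2.76%). The 6 listed first introns were 58727 bp (DOCK5), 31915 bp (PPM1B), 17676 bp (LRIG2), 15605 bp (WDR34), 12700 bp (UPF1) and 3543 bp (SPIRE1) wide. First introns and wide introns thus overlap, and the part of width in the share of first introns was not tested.

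The called exon lay before the intron in the RNA in 19 introns and after it in 22. NUP188, which encodes a nuclear pore scaffold protein, was the only intron with a called exon at both ends. Median values for the 2 sides were 1.40 and 1.41. The file itself is made of 2 alphabetical runs: in the first, of 25 rows, the exon lay at the higher genome coordinate in every row, and in the second, of 18 rows, at the lower one in every row. NUP188 is the intron that stands in both runs. The first run held 13 plus and 12 minus strand rows, the second 8 and 10, so the runs follow the genome and not the direction of transcription. The first run had a median value of 1.25 and a median width of 8633 bp, the second 1.51 and 3456.5 bp.

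All contacts, 43 in number, shared exactly 2 bases, and they came from 40 distinct exons, which are 5.98% of the 669 called U87MG exons. The DOCK1 exon (84 bp), the MICAL3 exon (174 bp) and the WDR34 exon (249 bp) each touched a listed intron on either side. TANC2, a scaffold protein of synapses, also had 2 listed introns, but beside 2 different exons, of 167 bp and 109 bp. Touching exons were 66 to 1532 bp wide with a median of 192 bp, and the other called U87MG exons had a median of 165 bp.

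The deposited values ran from 1.03 to 2.68 with a median of 1.41, and their scale is not stated, so they rank the entries and nothing more. Of 42 introns 18 were over 1.5 and 6 over 2. The lowest entries were those of ADAM28, a membrane metalloprotease (1.03), ITPR1, the inositol trisphosphate receptor of the endoplasmic reticulum (1.03), and RAD52, a recombination repair protein (1.04). No entry was at or under 1, and introns that the authors did not list are not analysed here.

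The 6 highest values were in 5 genes. MICAL3, a monooxygenase that acts on actin, was highest at 2.68 in an intron of 1523 bp, the 15th of 19 in its transcript, and its other listed intron, of 1122 bp, had 1.84. DOCK1, an exchange factor that activates the GTPase Rac, had 2.61 in its narrow intron of 7166 bp and 2.19 in the wide interval. LRIG2, a transmembrane protein with leucine-rich repeats, had 2.54 in its first intron of 17676 bp. THOC2, the large subunit of the THO complex for messenger RNA export, had 2.44 in intron 12 of 38, which spans 20270 bp. FBXW7, the substrate receptor of an SCF ubiquitin ligase, had 2.25 over 28648 bp.

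Wide and narrow introns reached similar heights. The 21 introns up to the median width had a median value of 1.35 and those over it 1.61, with ranges of 1.03 to 2.68 and 1.04 to 2.61. Entries equal to an annotated intron had a median of 1.49 and the other 13 of 1.24, with highest values of 2.68 and 2.25.

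**Figure D4:**
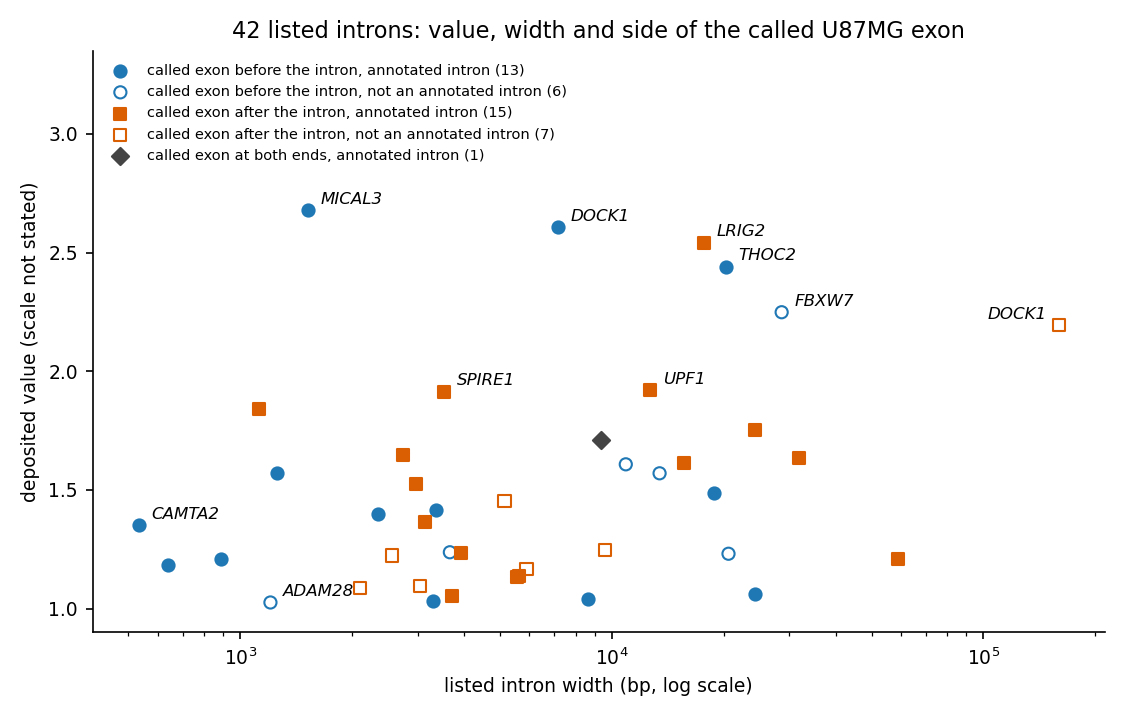
Deposited value (y axis, scale not stated) against listed width (x axis, bp, log scale) for the 42 introns. Circles have the called exon before the intron, squares after it and the diamond at both ends; filled marks equal an annotated intron. Values over 2 occur from 1523 bp (MICAL3) to 159497 bp (DOCK1).

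The hosts were sorted by function after their values were seen. These groups are no fixed lists and were not set against a background. UPF1, the helicase at the centre of nonsense-mediated decay, had a value of 1.92 in a first intron of 12700 bp. SMG1, the kinase that phosphorylates UPF1, had 1.52 over 2978 bp. CDK12, a kinase of the RNA polymerase II tail, had 1.49 over 18797 bp, and RBMX, a nuclear RNA-binding protein, had 1.23 over 20608 bp. THOC2 and NUP188 (1.71 over 9375 bp) act in RNA export and nuclear transport.

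Beside MICAL3 and DOCK1, some hosts act on the cytoskeleton or on small GTPases. They included SPIRE1, an actin nucleator (1.91), and AGAP1, a GTPase-activating protein for Arf (1.61). Also among them were DOCK5, a relative of DOCK1 (1.21), and MACF1, which links microtubules and actin (1.17). ATL2, a GTPase that shapes the endoplasmic reticulum, had 1.06. Cilium genes were WDR34, a dynein chain of intraflagellar transport (1.61 and 1.24), WDR52, an axonemal protein (1.40), and IFT172, a subunit of the transport particle (1.10). STK3 (1.45) and LATS1 (1.36) are kinases of the Hippo pathway. PPM1B (1.64) and PPP2R5A (1.25) belong to protein phosphatases. PIK3C3, the class III phosphoinositide 3-kinase of autophagy, had 1.57. RBL1, a relative of the retinoblastoma protein, also had 1.57, in an intron of 1254 bp. KYNU, the enzyme kynureninase, had 1.23, and MLLT4, the junction protein afadin, had 1.14.

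Only genes with a called U87MG exon could be hosts, and 38 of these 596 (6.38%) were. Of 10 nonsense-mediated decay genes, 4 had a called U87MG exon, and UPF1 and SMG1 were hosts. Of 11 DOCK family genes, 5 had a called U87MG exon, and DOCK1 and DOCK5 were hosts. These lists were chosen with the hosts known, so their counts carry no more than the names. THOC2 was the only host and the only gene with a called U87MG exon among 8 THO and export genes. None of a chosen 30 genes for splice site recognition and splicing was a host, while SF3B1, PRPF8 and SNRNP200 had a called U87MG exon. RBMX, a host that binds RNA, was not among those 30. That count thus depends on the choice of genes and does not say that no host acts in splicing. None of 11 PRC2 genes was a host, EZH1 having a called U87MG exon. In the authors' deposited table of siEZH2 against siGFP these lists held DOCK3 at a log2 fold change of -0.91, SMG5 at -0.80, SNRNP70 at -0.54 and PHF19 at 1.24, none of them a host.

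The touching exons were called in the other lines at shares whose intervals held the background. Of the 40, 23 were also called in T98G (57.5%, 95% Wilson interval 42.2 to 71.5), against 65% of all 669 called U87MG exons, a background that lies within the interval. In K562, 2 of the 40 were called (5%, interval 1.38 to 16.5), those of NCOR1 and LATS1, against 11.8% of all, which also lies within the interval. Both had the same ends in all 3 lines. FAM178A, a factor of DNA repair, and LATS1 had a T98G exon at the opposite end of the listed intron. The 25 introns whose exon was called in T98G had a median value of 1.45 and the other 17 had 1.40.

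Counted by gene, the shares were closer still to the background. A T98G exon was called in 28 of the 38 hosts (73.7%), against 74.5% of all 596 genes with a called U87MG exon, and a K562 exon in 7 (18.4%), against 17.1%. The 7 were ATL2, BIRC6, FAM178A, LATS1, MACF1, NCOR1 and SLC4A7, and all 7 also had a T98G exon. Their highest intron values were all under 1.5. Over the whole list, counted by intron and not by gene, only 18 of 42 introns (42.9%) were over 1.5. None of the 5 genes with values over 2, among 38 hosts, had a K562 exon. The groups of 7 and 5 are small, and a link between value and K562 calls was not tested. In 10 hosts (26.3%) only U87MG had a call, against 24.8% of the background genes: ADAM28, CAMTA2, CSMD2, KRT79, MICAL3, RAD52, RBL1, RBMX, SPIRE1 and WDR52. MICAL3, which ranks first by value, is thus among those without a call elsewhere.

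Hosts with several called exons made up a larger share than among the background genes. At least 2 U87MG exons were called in 11 of 38 (28.9%, 95% Wilson interval 17.0 to 44.8), against 11.6% of the 596 genes, which lies below that interval. A gene with more called exons has more introns that could be listed, and hosts also spanned more of the genome, with a median of 118770 bp against 81989.5 bp over the 536 background genes with an annotated span. The part of exon number and gene length in this difference was not tested. MACF1 led with 8 called exons in U87MG, 9 in T98G and 3 in K562, and only 1 of the 8 touched a listed interval. DOCK5, FAM178A and NUP188 had 3 in U87MG, and AGAP1, CSMD2, DOCK1, ITPR1, PPP2R5A, SMG1 and TANC2 had 2. SMG1 had 5 and BIRC6, a giant inhibitor of apoptosis, 4 in T98G.

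In the T98G list of full-length targets were 6 of the 38 hosts (15.8%, 95% Wilson interval 7.44 to 30.4), against 14.4% of the background genes. They were CAMTA2, HEATR5B, IFT172, NUP188, SMG1 and UPF1, and all but CAMTA2 also had a called T98G small RNA exon. None of them had an intron value over 2, which only 5 of the 38 hosts had, and UPF1 at 1.92 was highest.

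In the authors' deposited table of genes changed under siEZH2, named for an adjusted p of 0.05, 6 of the 38 hosts were present. Lower were 5 (13.2%, 95% Wilson interval 5.75 to 27.3), against 8.89% of the background genes, and higher was 1 (2.63%), against 2.85%. The authors' deposited table gave log2 fold changes of -0.96 for SLC4A7, a sodium bicarbonate transporter, -0.94 for WDR52, -0.88 for WDR34, -0.85 for BIRC6 and -0.55 for CSMD2, a transmembrane protein. For KRT79 the authors' deposited table gave 1.03. The direction, siEZH2 over siGFP, was taken from the table's name. The table has no row for EZH2, so neither that direction nor a lowering of EZH2 RNA could be checked from it. These are bulk libraries, so less RNA per cell and fewer expressing cells cannot be told apart. None of the 38 hosts was in both this table and the full-length list, against 16 of the 596 background genes (2.68%). In either were 12 hosts (31.6%), against 23.5% of the background genes. The 5 genes with intron values over 2 were not among the 12. These groups of 5 and 12 among 38 hosts are small, and a link between value and list was not tested.

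**Figure D5:**
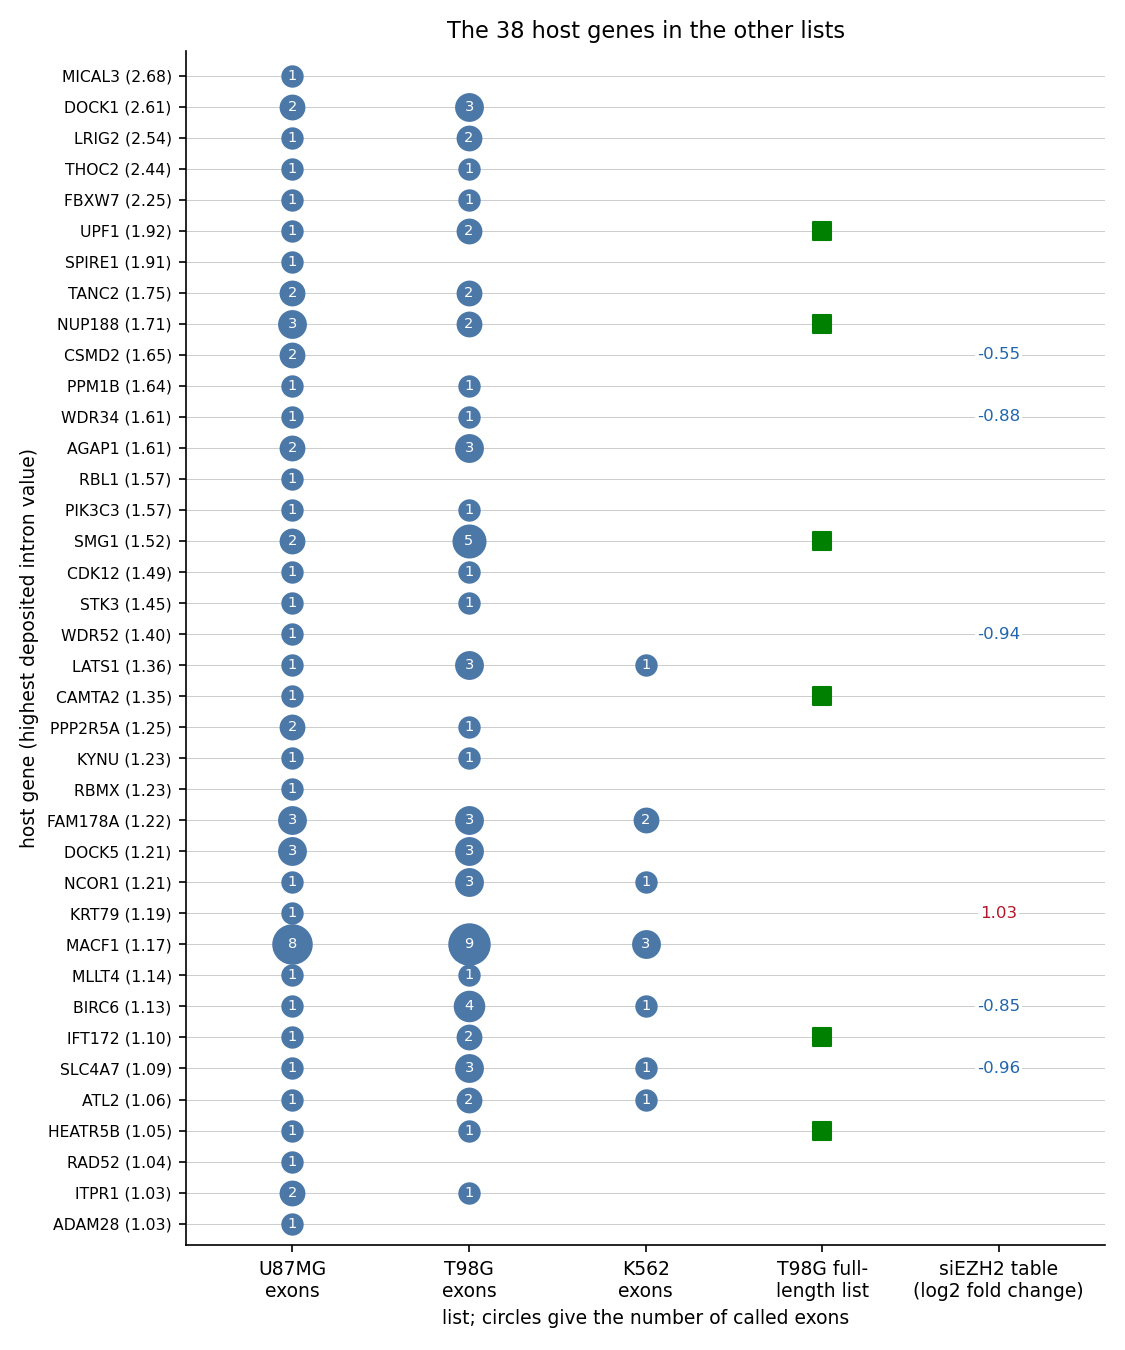
The 38 host genes (rows, ordered by highest deposited intron value, in parentheses) and their presence in the other lists (columns). Circles give the number of called exons in each line and green squares presence in the full-length list. Numbers give the log2 fold change in the authors' deposited siEZH2 table. The 7 genes with a K562 exon all have values under 1.5. The top 5 rows have no entry in the last 2 columns, where 12 of 38 hosts have one. These groups are small, and no link with value was tested.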

How the data were processed

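The 6 deposited lists give genomic regions in hg19 coordinates and were used as deposited; they hold 0 columns of values for single libraries, so depth is unknown and there is no replicate error and no test. Per the labels, small RNA reads were trimmed with cutadapt, aligned with BWA and counted over exons with bedtools, and exons were called with DESeq2 and peaks with pyicoclip. The submitters' processing notes name CASAVA 1.8, DESeq2 and hg19. The value of each retained intron is a score deposited by the authors whose scale and making are not given in the sources used here. The distance in the T98G list is another deposited score, read as exon middle minus peak middle in genome coordinates; no label gives its sign, which was settled from the sequence around the peaks. The siEZH2 table holds log2 fold changes deposited by the authors, per the labels from DESeq2 on gene counts of unstranded reads.

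Introns were compared with GENCODE release 44 mapped to GRCh37 and sequences read from that genome with pysam 0.24.0, in Python 3.11.15; intervals are 95% Wilson intervals from SciPy 1.17.1 and, like the limits for a count of 0 (3 counts), cover counting error over regions or genes only. Touching means at least 1 shared base on the same strand, and exons were assigned to genes by symbol. The contact rules were tested on simulated intervals. FAM178A, MLLT4, WDR34 and WDR52 are SLF2, AFDN, DYNC2I2 and CFAP44 in GENCODE, matched through RefSeq synonyms. All 38 hosts could be named; those given in full have the highest or lowest values, several introns or exons, the widest or narrowest introns, entries in other lists or AGATCG in the touching exon. The hosts, the gene lists and the comparisons were chosen with earlier results of these data known.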

Additional observations from a re-analysis of the deposited data

How the results depend on the processing

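Of 36 alternatives over 22 results, 26 stayed within 1.5 times the reported value, among them all gene assignments by position, contact without strand or within 100 bases, and every intron width. Restricting the list to introns at or above the median value left 21 touching a U87MG exon, 13 a T98G exon and 0 a K562 exon, since it removes introns. With an absolute log2 fold change of at least 1 in the authors' deposited table, 0 hosts were lower. In place of AGATCG in 4 touching exons, AGATC was in 15 and AGAT in 32, as shorter motifs must be at least as frequent, and AGATCG on the opposite strand was in 1. AGATCG lay in 16 introns, and in 0 of the far shorter 50-base stretches next to the touching exon. Over longest coding transcripts only, 2.76% of unlisted introns were first introns and 16.7% of listed ones, and median widths were 1501.5 and 4743.5 bp. For peaks, starts 6 to 20 bases on gave AGAT in 13 of 23 touching exons in place of 9, and the opposite sign of the distance gave 0, the sign having been settled on this match; both peak windows, the sign, the same-ends rule (23 exons), the width without the interval holding the assembly gap (5144 bp) and the value of annotated entries were chosen after seeing the data. No paired analysis was possible because the lists carry no values per library. Read depth, which is unknown, limits every absence stated.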
